A study of Mus musculus with 9 samples.

Results

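The genes described here encode the proteins of the mitochondrial ribosome, taken as every gene of the deposited tables whose symbol begins with Mrpl or Mrps followed by a digit. There are 76 of them among 20325 genes, 47 named Mrpl for the large subunit and 29 named Mrps for the small subunit. Messenger RNA was measured by RNA sequencing in whole livers of male C57BL/6J mice, 3 livers in each of 3 groups, all fed chow. ConvD mice were born germ-free and received, in 1 oral gavage, a suspension of cecal contents from conventionally raised C57BL/6J donors. GF+SCFA mice remained germ-free and were offered drinking water containing acetate at 67.5 mM, propionate at 25.9 mM and butyrate at 40 mM. GF mice remained germ-free and had no supplement. The stated age is 14 weeks in the design text, whereas the growth protocol places gavage at 15 weeks and dissection at 19 weeks, after 4 weeks of colonisation. Mice shared cages by colonisation status, so an effect of cage and an effect of group cannot be told apart, and nothing ties a library to a named animal.

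Mitochondria keep their own ribosome, which descends from that of a bacterial ancestor and translates the few membrane proteins of the respiratory chain that mitochondrial DNA encodes. All of its proteins are encoded in the nucleus, made in the cytosol and imported, while its ribosomal RNA comes from mitochondrial DNA. Many members have a bacterial counterpart, and the rest were added in the mitochondrial lineage. Liver is rich in mitochondria, and hepatocytes, its main cells, oxidise fatty acids and run part of the urea cycle and of gluconeogenesis in them. Acetate, propionate and butyrate are fermentation products of gut bacteria that reach the liver through the portal vein. Among the nuclear factors known to act on promoters of such genes are NRF1, the ETS family factor GABP and YY1.

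Names and places do not match for 3 of the Mrps genes. Mrps30 and Mrps18a encode proteins that sit in the large subunit of the mammalian ribosome, and the product of Mrps36 is now known as a part of the 2-oxoglutarate dehydrogenase complex. They are counted with the Mrps genes by name below, and the counts of called genes in each subunit were the same when they were moved or left out.

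The annotation of GRCm38 placed the 76 genes on 17 chromosomes, with 10 on chromosome 11. Promoter sequence, from 250 bases before to 50 bases after the start, was at hand in the RefSeq table of assembly GRCm38.p6 for 67 of the 76 genes. Exact matches on either strand were counted for 4 sets of letters. CCGGAAG, the core bound by ETS factors such as GABP, was present in 34.3% of the 67 promoters and in 17.7% of 8670 promoters of genes tested here. The core of the NRF1 site, GCGC and GCGC with any 2 bases between them, was present in 19.4% and 13.6%, and AAGATGGCG, the core of the YY1 site, in 11.9% and 3.18%. TATAAA, the core of the TATA box, was present in 5.97% and 7.43%. At least 1 of the first 3 was present in 39 of 67 member promoters (58.2%) and in 30.8% of promoters of genes tested. Among all 27025 promoters of the table, whether or not their genes are active in liver, the share was 15.4%. The ETS and YY1 cores can overlap by the 3 letters AAG, and a promoter with several matches was counted once.

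Promoters are shown for 4 of the members whose transcript level passed the test in a comparison below, as the 250 bases before the start on the gene's own strand, written 5′ to 3′, with matches to these cores in capitals.
Mrpl22, chr11:58171414-58171663, plus strand: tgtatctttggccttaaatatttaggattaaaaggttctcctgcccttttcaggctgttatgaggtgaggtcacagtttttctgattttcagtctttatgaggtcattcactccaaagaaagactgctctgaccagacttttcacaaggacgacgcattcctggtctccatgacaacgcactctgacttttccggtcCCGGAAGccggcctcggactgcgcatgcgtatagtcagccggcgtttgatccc
Mrpl20, chr4:155802628-155802877, plus strand: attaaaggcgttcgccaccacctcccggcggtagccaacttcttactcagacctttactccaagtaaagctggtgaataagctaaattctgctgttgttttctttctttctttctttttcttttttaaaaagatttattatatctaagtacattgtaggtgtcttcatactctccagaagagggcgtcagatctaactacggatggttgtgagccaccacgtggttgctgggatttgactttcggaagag
Mrps21, chr3:95871515-95871764, minus strand: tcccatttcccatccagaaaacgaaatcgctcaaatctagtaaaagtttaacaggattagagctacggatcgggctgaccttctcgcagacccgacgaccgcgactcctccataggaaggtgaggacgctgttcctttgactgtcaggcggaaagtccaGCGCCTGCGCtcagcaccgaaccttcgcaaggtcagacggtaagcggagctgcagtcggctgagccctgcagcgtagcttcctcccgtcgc
Mrps27, chr13:99344536-99344785, plus strand: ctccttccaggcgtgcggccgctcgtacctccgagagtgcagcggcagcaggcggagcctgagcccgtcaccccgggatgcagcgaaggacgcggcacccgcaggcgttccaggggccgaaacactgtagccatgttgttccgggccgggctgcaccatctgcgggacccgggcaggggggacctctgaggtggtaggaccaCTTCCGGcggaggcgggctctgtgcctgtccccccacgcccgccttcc
Mrpl22 has an ETS core 53 bases before its start and Mrps27 one 48 bases before it, there on the opposite strand. Mrps21 has an NRF1 core 91 bases before its start. In the bases after the start, which are not shown, Mrps21 has an ETS core at 18 and Mrps27 a YY1 core at 14. The stretch before Mrpl20 holds no match to these letters, which says nothing of other forms of the sites. Mrps24 also passed the test and is not shown. It has no ETS, NRF1 or YY1 core in the 250 bases before its start and a YY1 core at 36 after it. For Mrpl15, Mrpl38 and Mrps34, which passed as well, no promoter was at hand.

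All 76 members were detected in all 9 livers and all passed the filter on low counts, which left 12037 genes for testing. Mean expected counts per member were between 132 and 1815, and the members together took 0.163% to 0.19% of each library. Levels of different genes are compared below in TPM, transcript levels per length as deposited, and levels of 1 gene across livers in CPM, counts relative to library size after scaling by the TMM method. In the plot of levels, members differ from one another by far more than any of them differs between groups.

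Among the large-subunit genes the highest level was that of Mrpl12, which encodes the flexible stalk protein that recruits translation factors. Its level was 168, 161 and 155 TPM in ConvD livers, 170, 169 and 161 TPM in GF+SCFA livers, and 155, 149 and 183 TPM in GF livers. The 3 groups overlapped. Next came Mrpl30 (mean over 9 livers 103 TPM), Mrpl52 (95.6 TPM) and Mrpl42 (92.5 TPM). The ranges of these 3 genes over the livers overlapped, whereas every liver had more Mrpl12. The lowest was Mrpl19, whose bacterial counterpart sits at the face of the large subunit that meets the small one, with 3.96, 3.18 and 3.33 TPM in ConvD livers, 3.95, 2.96 and 3.93 TPM in GF+SCFA livers, and 3.42, 3.23 and 3.96 TPM in GF livers. Above it stood Mrpl41 (8.71 TPM), Mrpl17 (8.91 TPM) and Mrpl35 (9.56 TPM), which are too close to be ranked. The lowest 4 have the longer transcripts: the files give lengths of 2423 to 6712 bases for them, and 412 to 949 bases for the highest 4.

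**Figure D1:**
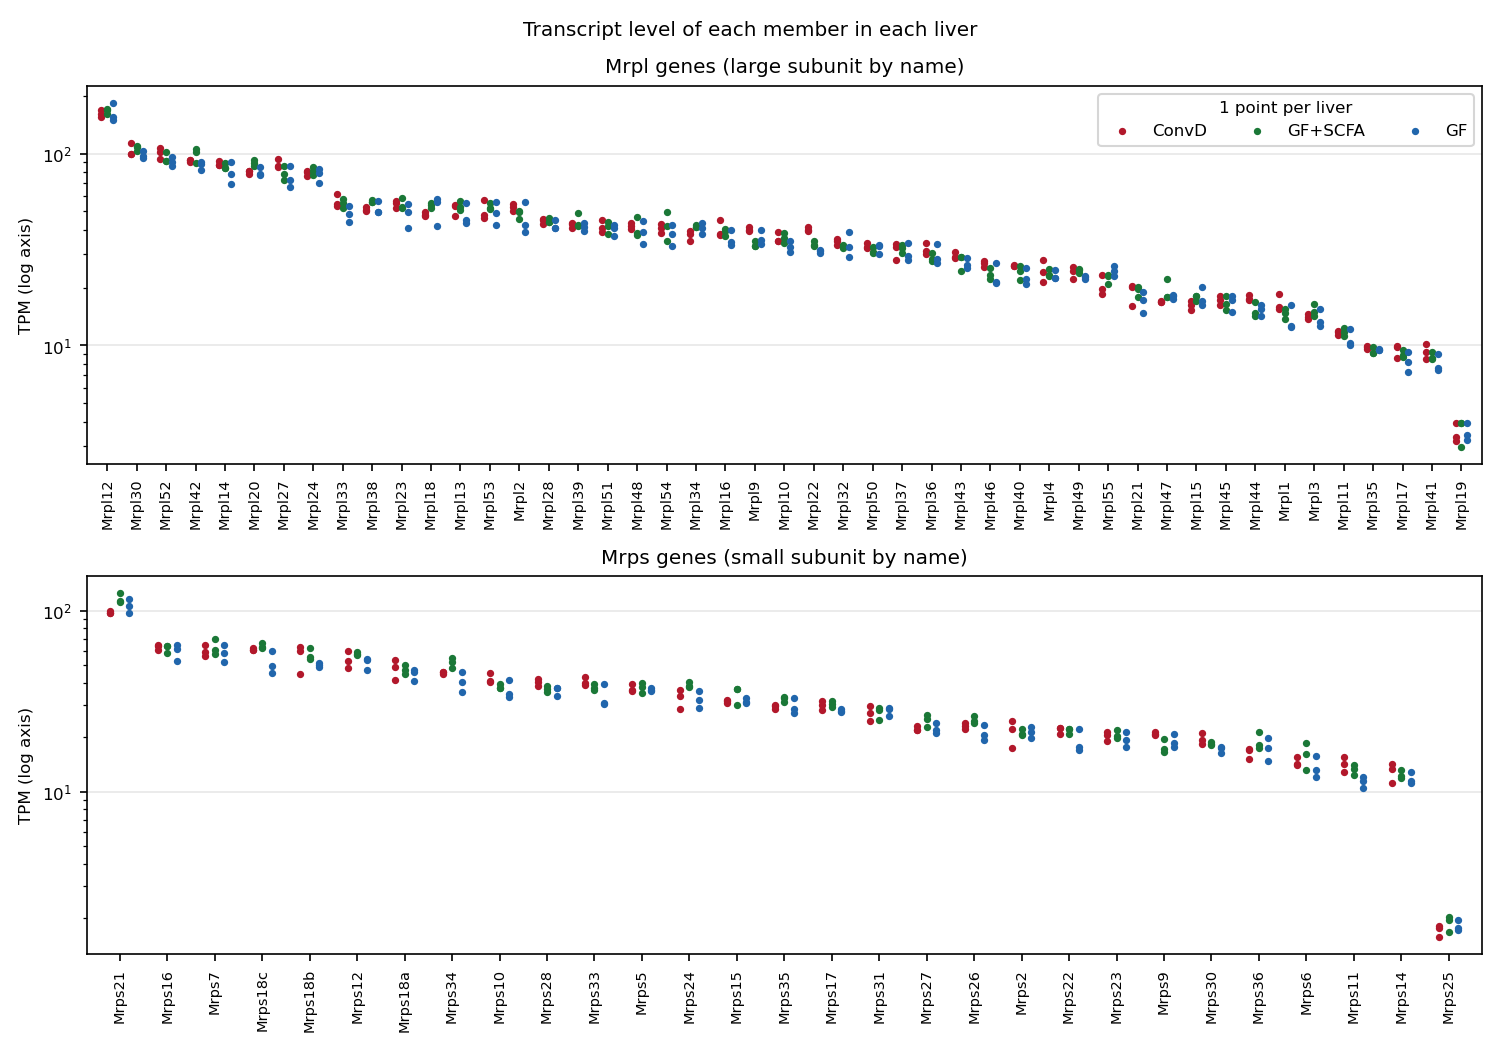
TPM (log axis) of each Mrpl gene (top) and each Mrps gene (bottom), in order of mean level, with 1 point per liver and the groups ConvD, GF+SCFA and GF side by side for each gene. Mean levels run from 163 TPM for Mrpl12 down to 3.55 TPM for Mrpl19, and from 107 TPM for Mrps21 down to 1.80 TPM for Mrps25, while the groups of 1 gene lie close together.

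Among the small-subunit genes Mrps21, the counterpart of bacterial S21, was highest, with 97.4, 97.4 and 100 TPM in ConvD livers, 112, 114 and 125 TPM in GF+SCFA livers, and 97.0, 106 and 116 TPM in GF livers. GF+SCFA livers lay above ConvD livers, and GF livers were spread over the range of both. Mrps16 (61.6 TPM) and Mrps7 (60.4 TPM), both with bacterial counterparts, were next. The lowest was Mrps25, specific to mitochondria, at 1.80 TPM, with a listed length of 6065 bases, below Mrps14 (12.4 TPM), Mrps11 (12.9 TPM) and Mrps6 (14.7 TPM). The Mrps18 paralogs, which occupy different places in the ribosome, had similar levels, with 58.9 TPM for Mrps18c, 54.5 TPM for Mrps18b and 46.7 TPM for Mrps18a. Mrps30 had 18.4 TPM and Mrps36 17.6 TPM.

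RSEM divides reads that match more than 1 transcript, and 59.6% of the members' expected counts were not whole numbers to within 0.005, where 46.7% of those above 0 of all genes were not. In the annotation of GRCm38, exons of 20 members overlap those of a coding gene on the opposite strand, among them Mrps34 with Mapk8ip3, Mrpl9 with Oaz3, and Mrps11 and Mrpl46 with each other. Exons of 4 members overlap a coding gene on the same strand, among them Mrps34 with Nme3 and Mrps24 with Urgcp. The library kit keeps the strand, but no source used here says whether the counting used it, and the values of these members are less certain.

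The libraries held 18193071 to 21627696 expected counts, and Alb, the main product of hepatocytes, stood at 55000 to 80500 TPM in every liver. The 10 hepatocyte markers summed to 113000 to 136000 CPM in ConvD livers, 116000 to 133000 CPM in GF+SCFA livers and 120000 to 137000 CPM in GF livers. In ConvD livers 1 of them was higher and 6 were lower than in GF+SCFA livers, and 1 was higher and 4 were lower than in GF livers. Markers of some other cell types differed between groups. The 11 macrophage and Kupffer cell markers summed to 426 to 643 CPM in ConvD livers, 349 to 426 CPM in GF+SCFA livers and 309 to 382 CPM in GF livers. Of these 11, 7 were higher in ConvD than in GF livers and 2 were higher than in GF+SCFA livers. The 7 neutrophil and monocyte markers summed to 10.1 to 15.2 CPM in ConvD livers, 3.18 to 3.54 CPM in GF+SCFA livers and 2.44 to 4.51 CPM in GF livers, with Mpo at 0 in every GF+SCFA and GF liver. The 8 stellate cell markers summed to 289 to 297 CPM in ConvD livers, 225 to 262 CPM in GF+SCFA livers and 269 to 301 CPM in GF livers. Of these 8, 4 were higher in ConvD than in GF+SCFA livers and 1 was lower in GF+SCFA than in GF livers. The 6 cholangiocyte markers summed to 40.5 to 62.8 CPM in ConvD livers, 24.8 to 29.3 CPM in GF+SCFA livers and 41.8 to 47.8 CPM in GF livers. The 5 B and plasma cell markers summed to 5.47 to 6.84 CPM in ConvD livers, 1.49 to 2.21 CPM in GF+SCFA livers and 2.18 to 3.15 CPM in GF livers. Only 3 of the erythroid markers and 3 of the T and NK cell markers had counts high enough for testing, and 0 of these passed in any comparison. Of the 9 endothelial markers 1 passed, lower in ConvD than in GF livers. The 4 erythroid markers summed to 275 to 871 CPM in ConvD livers, 208 to 303 CPM in GF+SCFA livers and 229 to 322 CPM in GF livers. The 9 endothelial markers summed to 284 to 314 CPM in ConvD livers, 268 to 299 CPM in GF+SCFA livers and 291 to 300 CPM in GF livers, and the 5 T and NK cell markers to 2.59 to 3.35 CPM in ConvD livers, 2.23 to 3.00 CPM in GF+SCFA livers and 2.08 to 2.99 CPM in GF livers. The part of these differences in the members' values below was not tested, and in bulk liver fewer cells of a type and less RNA per cell cannot be told apart.

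By subunit, the large-subunit genes summed to 1187, 1192 and 1241 CPM in ConvD livers, 1314, 1242 and 1266 CPM in GF+SCFA livers, and 1184, 1181 and 1219 CPM in GF livers. The small-subunit genes summed to 580, 576 and 585 CPM in ConvD livers, 646, 620 and 632 CPM in GF+SCFA livers, and 576, 566 and 576 CPM in GF livers. Every GF+SCFA liver had a higher sum than every ConvD liver and every GF liver on this scale, for both subunits, though the closest Mrpl sums were 1242 CPM in GF+SCFA and 1241 CPM in ConvD livers. In TPM the picture differed: the small-subunit genes summed to 1051, 994 and 976 TPM in ConvD livers, 1043, 1048 and 1046 TPM in GF+SCFA livers, and 930, 896 and 1029 TPM in GF livers. There, ConvD replicate 1 was above the GF+SCFA livers and GF replicate 3 was close below them. The large-subunit genes averaged 2010 ± 58.3 TPM in ConvD livers, 2006 ± 15.8 TPM in GF+SCFA livers and 1894 ± 155 TPM in GF livers (SD, n = 3 each). The share of TPM is set by all other transcripts too, and GF replicate 3 stood apart from the other GF livers there, with 2069 TPM against 1832 and 1779 TPM.

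The balance between subunits varied little. The summed TPM of the Mrpl genes over that of the Mrps genes was 1.97, 1.97 and 2.04 in ConvD livers, 1.93, 1.92 and 1.90 in GF+SCFA livers, and 1.97, 1.99 and 2.01 in GF livers. All 3 GF+SCFA livers had the lower ratios, so that the Mrps genes had a larger part of the total in that group.

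**Figure D2:**
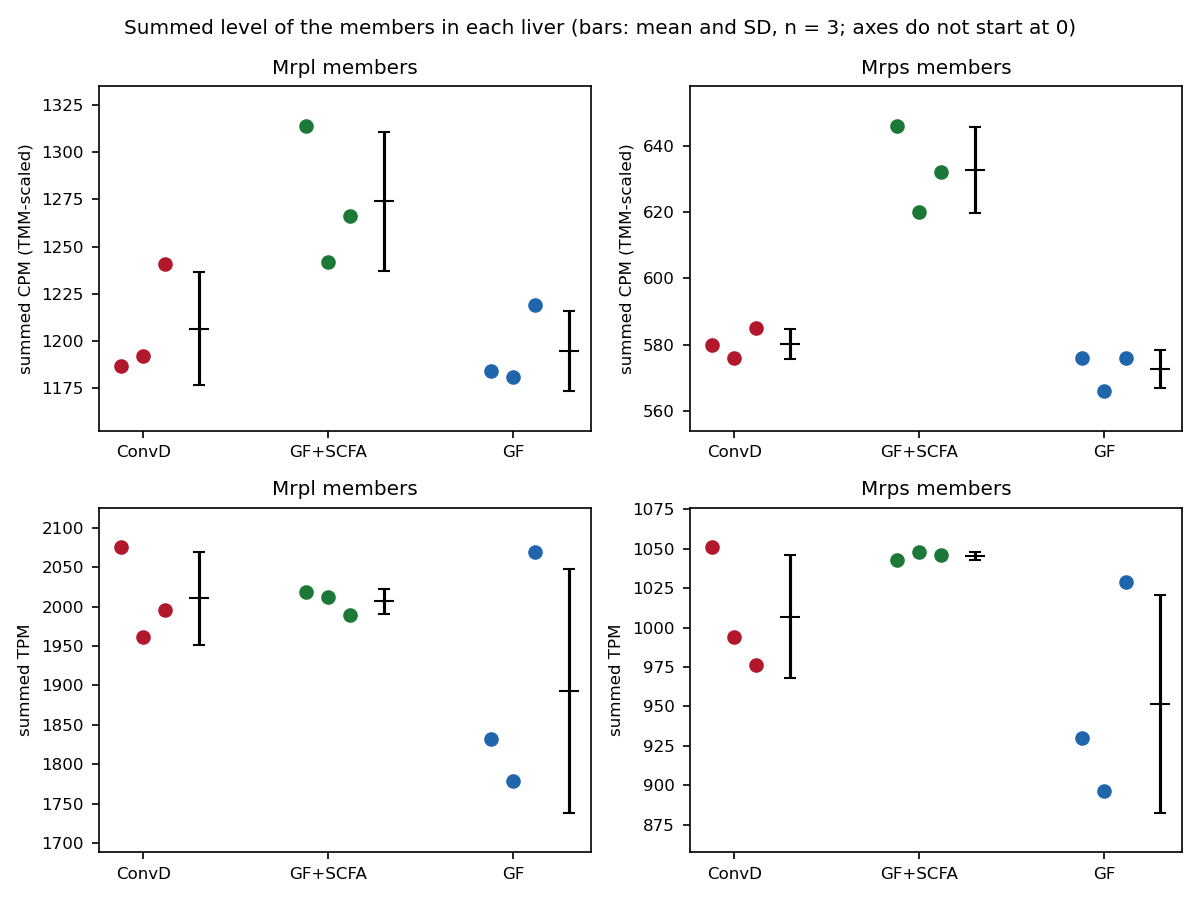
Summed level of the Mrpl members (left) and the Mrps members (right) in each liver, in TMM-scaled CPM (top) and in TPM (bottom), for ConvD, GF+SCFA and GF livers; bars are the mean and SD of 3 livers and the axes do not start at 0. In CPM the GF+SCFA livers lie above both other groups, at 620 to 646 for the Mrps members, and in TPM the ConvD livers overlap both other groups for the Mrps members, while GF replicate 3, at 1029 TPM, lies just below the GF+SCFA livers.

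Setting ConvD beside GF livers compares these transcripts between mice with and without a gut microbiota, though cage and group cannot be told apart. Of the 47 Mrpl genes 1 passed the test, Mrpl22, and of the 29 Mrps genes 0 did. That is 1.32% of the 76 members, where 12.8% of all genes tested passed (5.93% higher and 6.9% lower in ConvD livers). Passing means an adjusted p under 0.05 in edgeR's quasi-likelihood test with Benjamini-Hochberg adjustment over 12037 genes. The median log2 fold change of ConvD over GF was 0.02 for Mrpl and 0.03 for Mrps genes, against 0 for all genes. The highest and lowest values were 0.30 and -0.33 among Mrpl genes and 0.26 and -0.18 among Mrps genes.

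Mrpl22, whose protein lines the tunnel through which the new chain leaves the ribosome, had 15.8, 16.6 and 18.1 CPM in ConvD livers, against 14.2, 14.1 and 12.7 CPM in GF livers. The groups did not overlap, and the difference was 1.24-fold (log2 fold change 0.30, SE 0.09, 95% interval 0.11 to 0.50, adjusted p = 0.0414). GF+SCFA livers had 15.8, 14.3 and 14.9 CPM, between the other groups or touching the ConvD range. The call was lost in 8 of 9 fits that left out 1 library. Over the 9 fits its adjusted p ran from 0.0498 to 0.115, the highest without ConvD replicate 3 (log2 fold change 0.25).

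At an unadjusted p under 0.05 there were 4 Mrpl and 2 Mrps genes, 6 of 76, against 28.6% of all genes tested. Besides Mrpl22 these were Mrpl55 and Mrpl15, with lower values in ConvD livers, and Mrpl1, Mrps33 and Mrps11, with higher values. DESeq2 called 0 of the 76 members and 1514 of 15830 genes. Mrpl55, the counterpart of bacterial L31, had 9.71, 8.79 and 8.56 CPM in ConvD livers and 10.8, 11.9 and 11.2 CPM in GF livers, without overlap (log2 fold change -0.33, SE 0.10, adjusted p = 0.0542). Mrpl1, part of the stalk beside which spent tRNA leaves, had 29.0, 26.8 and 28.2 CPM in ConvD livers and 24.1, 24.4 and 26.1 CPM in GF livers, also without overlap (log2 fold change 0.17, adjusted p = 0.145). Mrps11, a protein of the platform of the small subunit, had 9.03, 8.74 and 8.13 CPM in ConvD livers and 7.44, 7.03 and 7.14 CPM in GF livers (log2 fold change 0.26, adjusted p = 0.112). Mrps33, specific to mitochondria, had a log2 fold change of 0.20 (adjusted p = 0.109), and the next small-subunit genes were Mrps21 at -0.18 (adjusted p = 0.193) and Mrps18c at 0.18 (adjusted p = 0.216). Values of ConvD livers were above those of GF livers without overlap in 11 of 76 members, where 15.7% of all genes did so, and below them in 6 of 76, where 15.9% did.

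The interval of each gene, on the TMM scale, gives the precision of its difference between these livers. Such intervals do not cover a change of scaling or an effect of cage, and were not widened for the number of genes. In each of the 3 comparisons the 95% interval of the fold change of every one of the 76 members lay within 1.5-fold either way. Among all genes tested this held for 64.3% in ConvD against GF, 72.3% in GF+SCFA against GF and 61.6% in ConvD against GF+SCFA. The median SE of a member's log2 fold change was 0.09, against 0.12 for all genes. The median SD of log2 CPM within groups was likewise 0.09 for members and 0.15 for all genes.

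**Figure D3:**
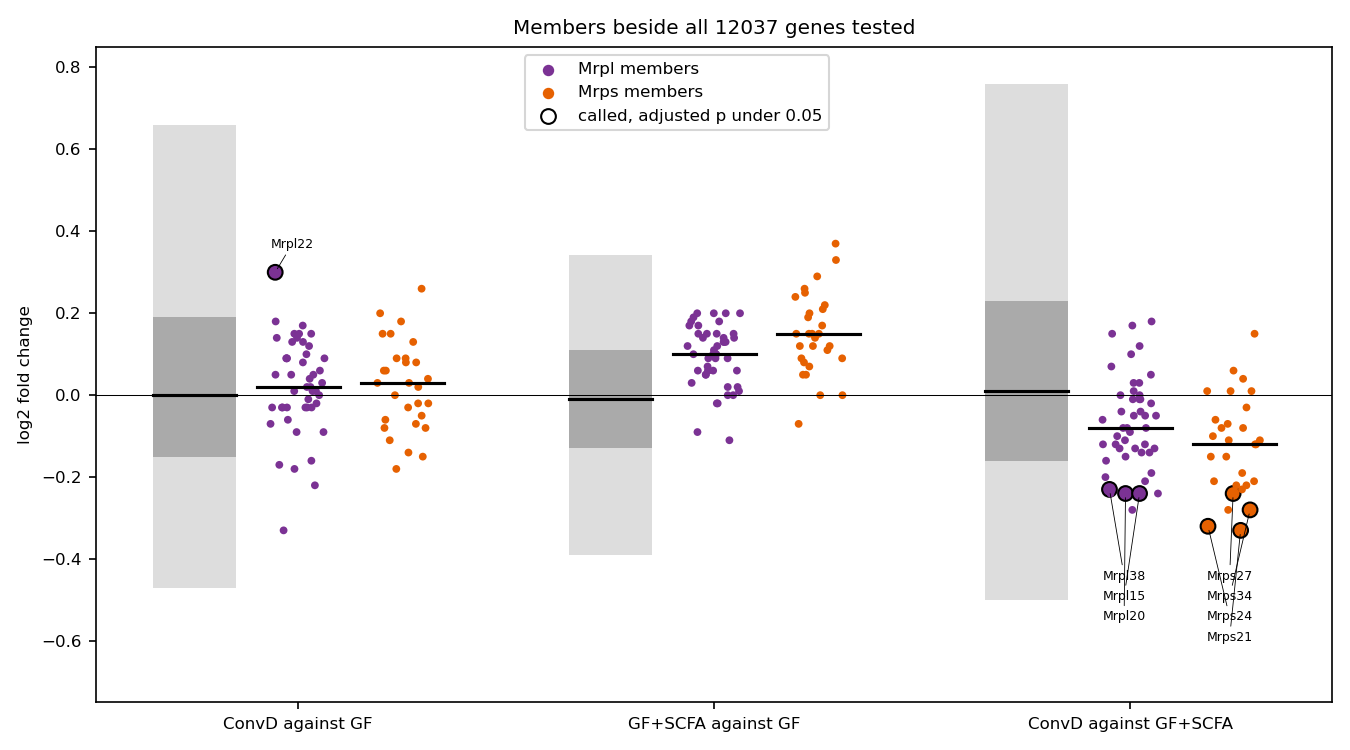
Log2 fold change of each Mrpl and Mrps member in the 3 comparisons, beside all genes tested (pale bar, 5th to 95th percentile; dark bar, 25th to 75th percentile), with lines at the medians and ringed points for called members. Members scatter around 0 in ConvD against GF (medians 0.02 and 0.03), lie mostly above 0 in GF+SCFA against GF (0.10 and 0.15) and mostly below 0 in ConvD against GF+SCFA (-0.08 and -0.12).

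Setting GF+SCFA beside GF livers compares mice with and without the supplement, with no bacteria present, though cage and group cannot be told apart. No member passed the test: 0 of 47 Mrpl and 0 of 29 Mrps genes with edgeR, where 0.0415% of all genes passed, or 5 of 12037 (0.00831% higher and 0.0332% lower in GF+SCFA livers). At an unadjusted p under 0.05 there were 3 Mrpl and 9 Mrps genes, all with higher values in GF+SCFA livers (12 of 76, or 15.8%, against 5.09% of all genes in that direction and 7.18% in the other). DESeq2 called 1 member, Mrps34, among 81 genes. Fold changes were above 0 in 41 of 47 Mrpl and 27 of 29 Mrps genes (68 of 76, or 89.5%), against 48.7% of all genes, with medians of 0.10 and 0.15 against -0.01 for all genes. Values of GF+SCFA livers lay above those of GF livers without overlap in 16 Mrpl and 14 Mrps genes, 30 of 76, where 9.06% of all genes did, and below them in 0 of 76, where 8.86% did. The members' values are not independent of one another, and no test over the list was made.

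Mrps34, a small-subunit protein specific to mitochondria whose mutation in mice destabilises the subunit, stood highest. It had 27.1, 27.7 and 30.4 CPM in GF+SCFA livers, against 22.4, 20.2 and 23.2 CPM in GF livers. The groups did not overlap (log2 fold change 0.37, SE 0.08, 95% interval 0.19 to 0.55, unadjusted p = 0.000545 and adjusted p = 0.141 with edgeR). Without GF replicate 3 it passed (log2 fold change 0.41, adjusted p = 0.0438), and calls over all genes rose from 5 to 173. In the other 8 fits that left out 1 library the adjusted p of Mrps34 was 0.102 to 0.489. Its same-strand neighbour Nme3 had a log2 fold change of 0.06 (adjusted p = 0.894) and its opposite-strand neighbour Mapk8ip3 one of 0.06 (adjusted p = 0.888).

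Mrps18c, the paralog in the place of bacterial S18, had 19.2, 17.2 and 17.7 CPM in GF+SCFA livers and 12.8, 14.5 and 15.6 CPM in GF livers (log2 fold change 0.33, SE 0.09, adjusted p = 0.218). Its paralogs had smaller values, 0.21 for Mrps18b (adjusted p = 0.436) and 0.11 for Mrps18a (adjusted p = 0.643), and differences between paralogs were not tested. Mrps24, the counterpart of bacterial S3 at the entrance of the messenger RNA channel, had 24.2, 22.8 and 25.4 CPM in GF+SCFA livers and 20.3, 18.7 and 20.5 CPM in GF livers (log2 fold change 0.29, SE 0.10, adjusted p = 0.298). Mrps26, specific to mitochondria, had a log2 fold change of 0.26 (adjusted p = 0.292). The GF+SCFA livers lay above the GF livers in Mrps18c, Mrps18b, Mrps24 and Mrps26, and the groups overlapped in Mrps18a.

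In the large subunit the smallest p values were those of Mrpl20, Mrpl42, Mrpl10 and Mrpl30. Mrpl20, whose bacterial counterpart is needed early in assembly of the large subunit, had 35.4, 33.0 and 36.7 CPM in GF+SCFA livers and 30.6, 31.6 and 30.7 CPM in GF livers (log2 fold change 0.18, SE 0.07, adjusted p = 0.36). Mrpl10, the base on which the stalk protein Mrpl12 is mounted, had a log2 fold change of 0.17 (adjusted p = 0.378), against 0.06 for Mrpl12 (adjusted p = 0.732). Mrpl42, specific to mitochondria, had 42.0, 33.9 and 40.6 CPM in GF+SCFA livers and 35.0, 33.4 and 32.8 CPM in GF livers, where the groups overlapped (log2 fold change 0.20, adjusted p = 0.371). Mrpl30 stood at 0.14 (adjusted p = 0.41). Mrpl genes ran from -0.11 to 0.20 and Mrps genes from -0.07 to 0.37.

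By the kind of protein, the 10 small-subunit genes specific to mitochondria had a median log2 fold change of 0.18 and the 16 with a bacterial counterpart one of 0.13, and the 17 large-subunit genes specific to mitochondria and the 30 with a counterpart each had 0.10. These classes were assigned after the values had been seen, and differences between them were not tested.

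**Figure D4:**
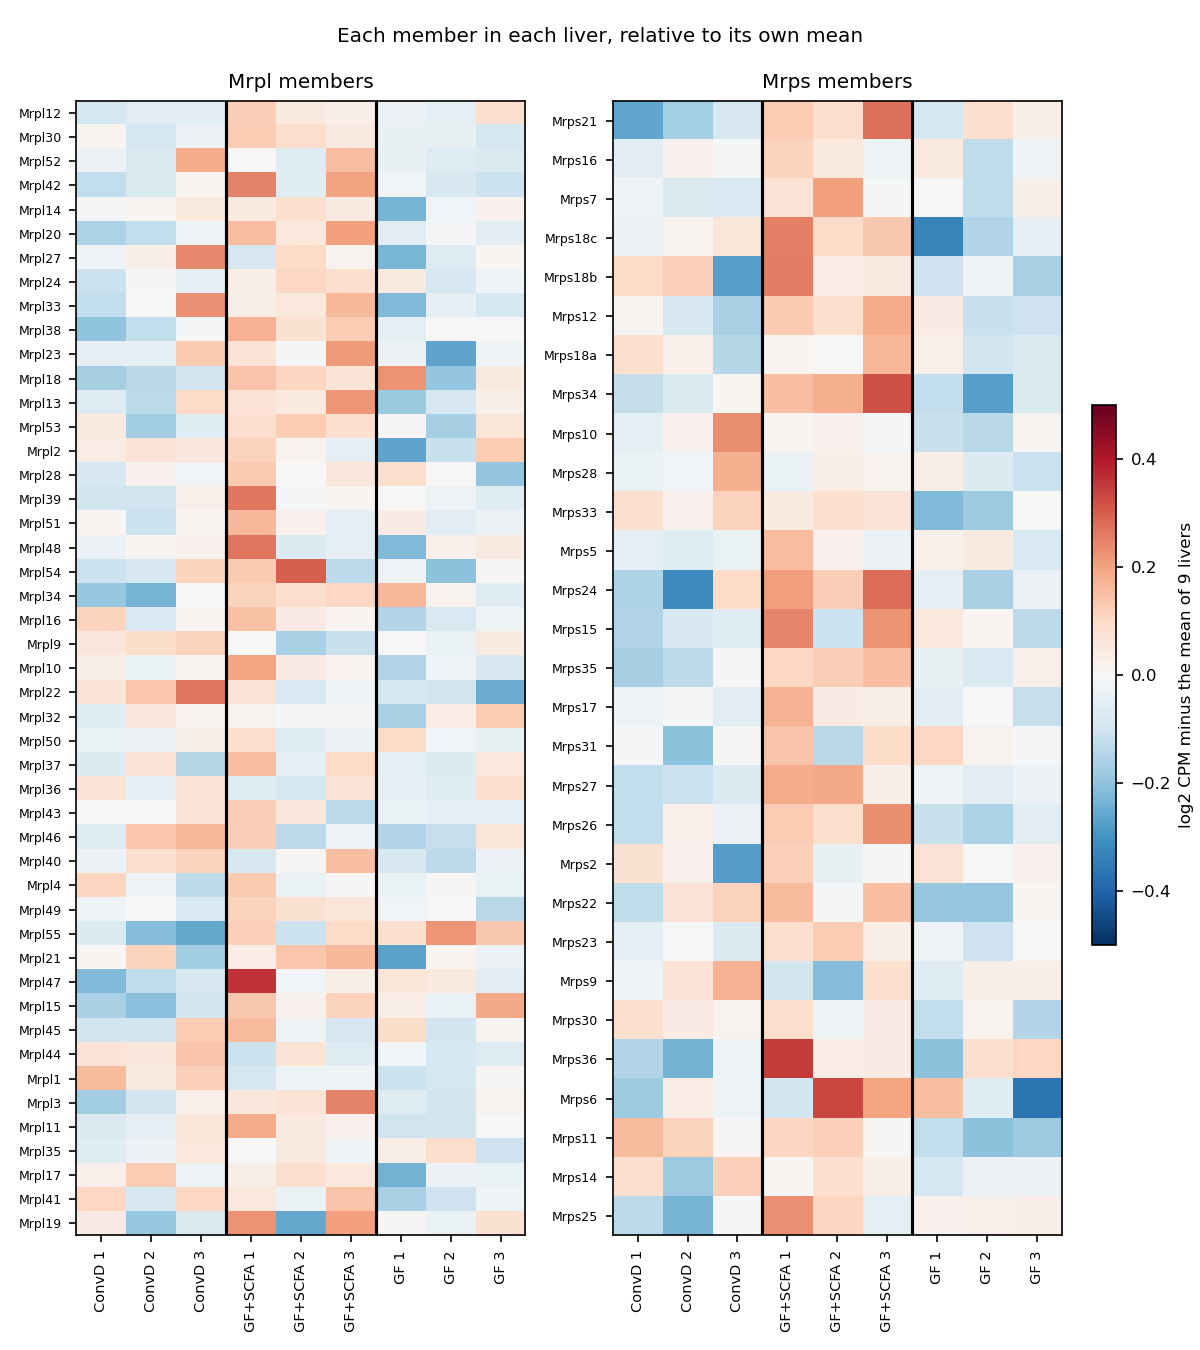
Log2 CPM of each member minus its mean over the 9 livers, for the Mrpl members (left) and the Mrps members (right) in order of mean TPM, with columns for the ConvD, GF+SCFA and GF livers. GF+SCFA replicate 1, whose sums were the highest at 1314 and 646 CPM, has 66 of 76 members above their mean, and single members depart from the pattern of their group.

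The number of members above their own mean over the 9 livers was 25, 29 and 42 in ConvD livers, 66, 51 and 57 in GF+SCFA livers, and 25, 17 and 31 in GF livers. Every GF+SCFA liver had more than every liver of the other groups, and replicate 1 had the most. Without that library 62 of 76 members had a fold change above 0 in GF+SCFA against GF, and the medians were 0.07 for Mrpl and 0.13 for Mrps genes. Over 18 fits, which differ in scaling, filter, tool, samples or a left-out library, the number above 0 ran from 62 to 71. The median of a subunit minus that of all genes ran from 0.07 to 0.13 for Mrpl and from 0.14 to 0.17 for Mrps genes.

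The comparison of ConvD with GF+SCFA livers sets colonised mice beside germ-free mice that drank the fatty acids. Of the 76 members 7 passed the test and all 7 were lower in ConvD livers: Mrpl38, Mrpl20 and Mrpl15 among 47 Mrpl genes, and Mrps21, Mrps34, Mrps27 and Mrps24 among 29 Mrps genes. That is 9.21% of members, where 18.4% of all genes passed in either direction, 9.44% were higher and 8.97% were lower in ConvD livers, so the share of members lower was close to that of genes at large. At an unadjusted p under 0.05 there were 16 of 76 members (21.1%, against 33.1% of all genes), 15 of them lower in ConvD livers (19.7%, against 15.8% of all genes). Fold changes were above 0 in 18 of 76 members, against 51.0% of all genes, with medians of -0.08 for Mrpl, -0.12 for Mrps and 0.01 for all genes. Values of ConvD livers lay below those of GF+SCFA livers without overlap in 25 of 76 members, where 18.9% of all genes did, and above them in 2, where 19.0% did. This comparison shares its GF+SCFA livers with the one before and its ConvD livers with the first, so the 3 sets of values are not independent.

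Mrps21 differed most. It had 19.0, 20.2 and 21.5 CPM in ConvD livers, against 24.8, 24.1 and 27.5 CPM in GF+SCFA livers, without overlap (log2 fold change -0.33, SE 0.09, 95% interval -0.52 to -0.15, adjusted p = 0.0169). GF livers, at 21.4, 24.1 and 23.2 CPM, lay between or touched the ranges of both. Mrps34 had 22.5, 23.2 and 24.6 CPM in ConvD livers and 27.1, 27.7 and 30.4 CPM in GF+SCFA livers (log2 fold change -0.28, SE 0.08, adjusted p = 0.0331), and ConvD livers overlapped GF livers in this gene. Mrps24 had 18.8, 16.8 and 22.4 CPM in ConvD livers and 24.2, 22.8 and 25.4 CPM in GF+SCFA livers, where the groups nearly met (log2 fold change -0.32, SE 0.10, adjusted p = 0.0421). Its same-strand neighbour Urgcp had a log2 fold change of 0.07 (adjusted p = 0.658).

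Mrps27, a protein of the small subunit with RNA-binding pentatricopeptide repeats, had 24.6, 24.9 and 25.6 CPM in ConvD livers and 30.5, 30.6 and 27.4 CPM in GF+SCFA livers (log2 fold change -0.24, SE 0.07, adjusted p = 0.0398). Mrpl38, specific to mitochondria and part of the central protuberance of the large subunit, had 40.3, 42.5 and 46.1 CPM in ConvD livers and 52.2, 48.8 and 50.5 CPM in GF+SCFA livers (log2 fold change -0.23, SE 0.07, adjusted p = 0.0336). Mrpl20 had 28.5, 29.2 and 31.4 CPM in ConvD livers, against the 33.0 to 36.7 CPM of GF+SCFA livers (log2 fold change -0.24, SE 0.07, adjusted p = 0.0373). In all of these the groups were apart.

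Mrpl15, the counterpart of bacterial L15, had 37.1, 35.9 and 39.0 CPM in ConvD livers, 45.6, 42.1 and 45.0 CPM in GF+SCFA livers, and 42.5, 40.6 and 47.3 CPM in GF livers. ConvD livers lay below both other groups (log2 fold change -0.24, SE 0.08, adjusted p = 0.0389 against GF+SCFA, and -0.22, adjusted p = 0.0716 against GF). Mrpl9, with a bacterial counterpart near the L1 stalk, had values in the other direction, with 38.0, 39.0 and 39.6 CPM in ConvD livers and 36.5, 32.7 and 33.8 CPM in GF+SCFA livers (log2 fold change 0.18, SE 0.07, adjusted p = 0.0907).

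**Figure D5:**
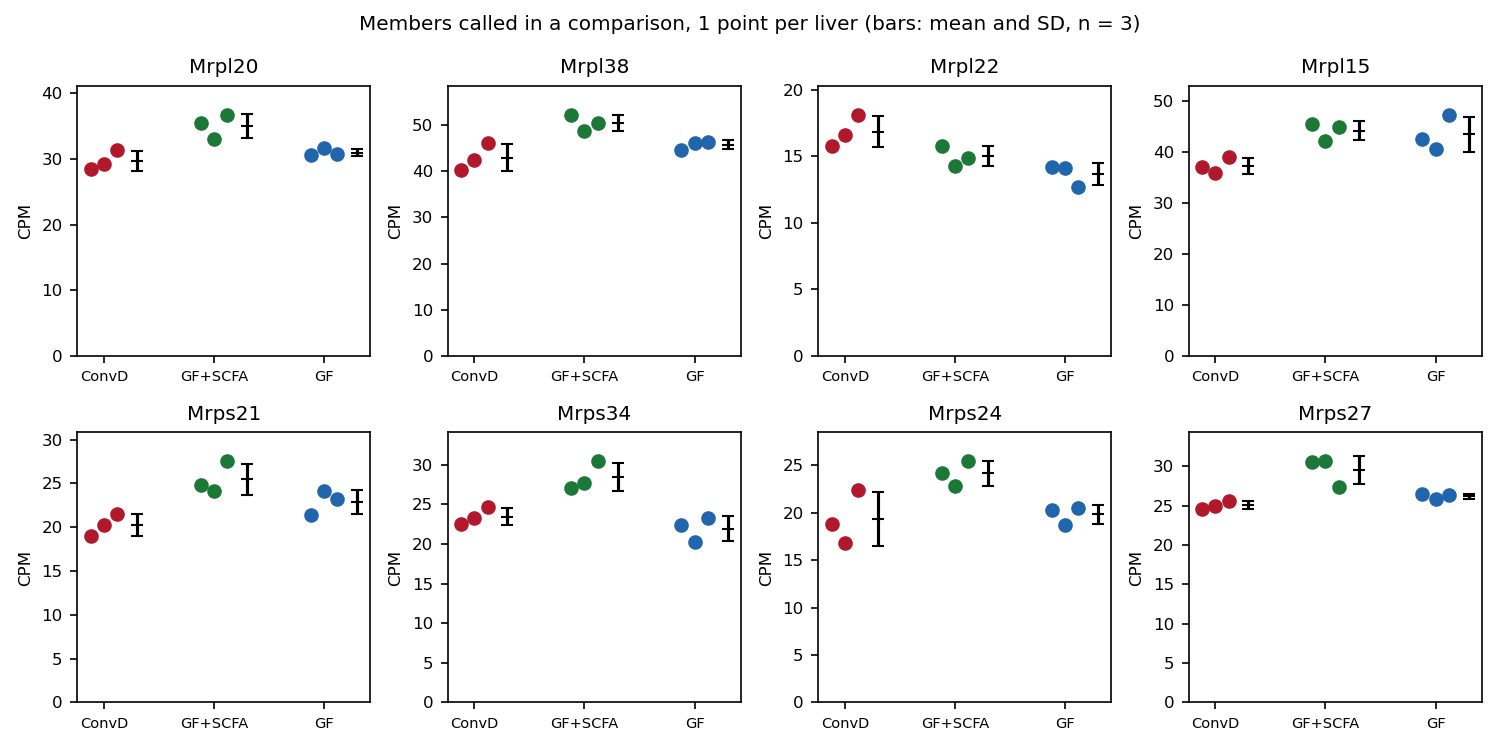
CPM in each liver of the 8 members that passed the test in a comparison, for ConvD, GF+SCFA and GF livers; bars are the mean and SD of 3 livers. Mrpl22 is highest in ConvD livers at 15.8 to 18.1 CPM, Mrpl15 is lowest in them, and the other 6 genes are highest in GF+SCFA livers.

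The calls of ConvD against GF+SCFA depended on the scaling of the libraries, the tool and the samples fitted. Mrpl20, Mrps24 and Mrps27 lost theirs with DESeq2 (adjusted p = 0.0543, 0.0507 and 0.0639) and with edgeR on only the 6 samples compared (adjusted p = 0.0521, 0.0520 and 0.0557). With upper-quartile factors 2 members passed, Mrps21 lower and Mrpl9 higher, with library totals 1, Mrpl9 higher, and on log2(TPM + 1) with limma 1, Mrpl22 higher. The median of all genes was then 0.06, 0.08 and 0.07 rather than 0.01, and the share of higher values among all called genes was 66.8%, 72.4% and 77.6% rather than 51.3%. In ConvD against GF that share was 66.1%, 73.1% and 75.5% rather than 46.2%. Relative to the median of all genes the members were lower in ConvD than in GF+SCFA livers under each setting, by -0.11 to -0.06 for the median Mrpl gene and -0.15 to -0.10 for the median Mrps gene. Without ConvD replicate 1 the number of called members was 0 rather than 7. It was 1 without ConvD replicate 2 or GF+SCFA replicate 3, 2 without GF+SCFA replicate 1 and 4 without GF+SCFA replicate 2. Calls over all genes fell as well in these fits, from 2216 to between 1383 and 1611. The number of called members was 8 without ConvD replicate 3 or GF replicate 2, 7 without GF replicate 3 and 5 without GF replicate 1. Calls over all genes were then 2065, 2203, 2393 and 2140. Some of the members called were not among the 7. These were Mrpl42 and Mrps15 without GF+SCFA replicate 2, and Mrpl34 and Mrps35 without ConvD replicate 3. Mrpl18 was called with only the 6 samples compared and without GF replicate 2. Mrps21 kept its call in 7 of 9 fits that left out 1 library (highest adjusted p 0.0823 without GF+SCFA replicate 3), and each of the other 6 of the 7 lost it in 4 to 6.

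Genes that work with the mitochondrial ribosome were examined beside it. The 7 ribosomal proteins without an Mrpl or Mrps name, such as Ptcd3, summed to 179, 179 and 188 CPM in ConvD livers, 193, 199 and 199 CPM in GF+SCFA livers, and 179, 180 and 181 CPM in GF livers. On the TMM scale GF+SCFA livers were above both other groups, with closest sums of 193 and 188 CPM. The sums of these genes were not made with other scaling factors. With edgeR or DESeq2, 0 of 7 passed the test in any comparison. At an unadjusted p under 0.05 there were 0 in ConvD against GF, 1 in GF+SCFA against GF and 2 in ConvD against GF+SCFA. Their median log2 fold changes were -0.02 in ConvD against GF, 0.13 in GF+SCFA against GF and -0.15 in ConvD against GF+SCFA. Of the 24 assembly factors and enzymes that modify ribosomal RNA, 1 was higher and 1 lower in ConvD than in GF livers, and 2 were lower in ConvD than in GF+SCFA livers. Dhx30, an RNA helicase needed for assembly, fell to 19.8 ± 0.58 CPM in ConvD livers, against 24.0 ± 0.663 CPM in GF+SCFA livers (log2 fold change -0.28, adjusted p = 0.0200) and 23.8 ± 0.698 CPM in GF livers (log2 fold change -0.26, adjusted p = 0.0347; SD, n = 3 each). Trub2, an enzyme that makes pseudouridine, rose in ConvD to 10.1 ± 0.557 CPM, against 7.57 ± 0.896 CPM in GF livers (log2 fold change 0.42, adjusted p = 0.0335). The GTPase gene 2610024G14Rik, listed by RefSeq as Noa1, was lower in ConvD, at 7.39 ± 0.342 CPM, than in GF+SCFA livers, at 10.2 ± 0.778 CPM (log2 fold change -0.47, adjusted p = 0.0240).

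Of 17 genes for transcription of mitochondrial DNA and handling of its RNA, 1 was lower in ConvD than in GF livers and 2 were lower than in GF+SCFA livers. Lrpprc, which stabilises mitochondrial messenger RNA, had 127 ± 1.13 CPM in ConvD, 151 ± 5.88 CPM in GF+SCFA and 154 ± 11.1 CPM in GF livers (adjusted p = 0.0210 against GF+SCFA and 0.0194 against GF). Supv3l1, a helicase of the mitochondrial RNA degradosome, had 15.4 ± 0.485 CPM in ConvD and 19.0 ± 0.383 CPM in GF+SCFA livers (adjusted p = 0.0216). Of 12 translation factors 1 passed in any comparison, Mtif2, the initiation factor that brings the first tRNA, with 33.2 ± 3.39 CPM in ConvD and 27.2 ± 1.39 CPM in GF+SCFA livers (log2 fold change 0.29, adjusted p = 0.0361). Of 22 genes that charge mitochondrial tRNA, which are aminoacyl-tRNA synthetases apart from the amidotransferase subunits Gatc, Qrsl1 and Pet112l, 1 passed in any comparison. It was Cars2, the synthetase for cysteine, with 7.76 ± 0.541 CPM in ConvD and 9.94 ± 0.829 CPM in GF+SCFA livers (log2 fold change -0.36, adjusted p = 0.0367). Of 11 regulators of nuclear genes for mitochondria 1 passed in any comparison, Esrra, a nuclear receptor, with 19.9 ± 1.43 CPM in ConvD and 24.7 ± 2.10 CPM in GF livers (log2 fold change -0.31, adjusted p = 0.0334).

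Markers of mitochondrial content summed to 1980, 1970 and 2030 CPM in ConvD livers, 2270, 2180 and 2250 CPM in GF+SCFA livers, and 2170, 2120 and 2150 CPM in GF livers. On the TMM scale ConvD livers were below both other groups. GF+SCFA livers were above GF livers there, though the closest sums were 2180 and 2170 CPM. These sums were not made with other scaling factors. Of these 15 genes 2 were lower in ConvD than in GF livers and 3 lower than in GF+SCFA livers. Tomm40, the import channel of the outer membrane, had 22.3 ± 1.99 CPM in ConvD, 32.0 ± 1.70 CPM in GF+SCFA and 30.6 ± 2.23 CPM in GF livers (adjusted p = 0.00151 against GF+SCFA and 0.00547 against GF), and kept both calls when any 1 library was left out. On log2(TPM + 1) with limma the call against GF was lost (adjusted p = 0.0574). Hspd1, the mitochondrial chaperonin, had 452 ± 28.3 CPM in ConvD, 534 ± 1.60 CPM in GF+SCFA and 534 ± 32.0 CPM in GF livers (adjusted p = 0.0375 and 0.0478). Phb2, a prohibitin of the inner membrane, had 121 ± 4.48 CPM in ConvD and 141 ± 3.63 CPM in GF+SCFA livers (adjusted p = 0.0265). The part of mitochondrial content in the members' values was not tested.

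Over these 7 lists, 108 genes in all, 6 passed in ConvD against GF (12.8% of all genes did), 0 in GF+SCFA against GF (0.0415%) and 9 in ConvD against GF+SCFA (18.4%) with edgeR. DESeq2 called 4, 0 and 8 of them, beside 1514, 81 and 2026 of 15830 genes. At an unadjusted p under 0.05 there were 19 of 108 in ConvD against GF, 7 of them higher in ConvD livers, where 28.6% of all genes had such a p. In GF+SCFA against GF there were 12 of 108, 10 of them higher in GF+SCFA livers, where 12.3% of all genes had such a p. In ConvD against GF+SCFA there were 27 of 108, 7 of them higher in ConvD livers, where 33.1% of all genes had such a p. Of the 15 calls, 5 were kept with upper-quartile factors, 5 with library totals and 2 on log2(TPM + 1) with limma. With 1 library left out, 3 (without ConvD replicate 1) to 14 (without GF replicate 3) were kept.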

How the data were processed

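Qiagen columns were used for RNA and a stranded Illumina TruSeq mRNA kit for the libraries, per the labels' protocols. Reads were handled by the authors with RSEM 1.2.23, Bowtie2 and build mm9, per the submitters' processing notes; a Bowtie2 version and a strand setting are not stated there. The deposited tables hold expected counts (estimated counts, not normalised) and TPM, which the authors scaled by length and depth, per the file headers. Coordinates and promoters are those of RefSeq's table for GRCm38.p6, and overlaps of exons come from the GENCODE annotation of GRCm38, not from the files' build.

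Expected counts were rounded. The filter of edgeR 4.0.16 (R 4.3.3; filterByExpr, minimum count 10) left 12037 of 20325 genes. These were scaled by TMM (factors 0.935 to 1.06) and fitted in 1 robust quasi-likelihood model of the 3 groups and all 9 samples, with 6 residual degrees of freedom. The SE is the log2 fold change over the square root of F. Alternatives were other scaling factors, no filter, DESeq2 1.42.0, limma 3.58.1 on log2(TPM + 1), fewer samples, a replicate block and leaving out each library. The samples of a group are stated to be biological replicates but carry no animal names, so the p-values reflect the spread among these samples only. Between samples of a group, chi-square per degree of freedom was 11.4 to 54.4, so none were copies. edgeR put biological variation between replicates at a coefficient of 10.6%. The procedure was also run on counts simulated from the means, library sizes and spread of this same fit. Such counts hold no effect of cage or scaling, so the run cannot show how these bear on the calls.

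The members and the lists of partner and marker genes (173 of 175 symbols found) were chosen with earlier results of these data known, so no list is independent evidence. Named members are, per comparison and subunit, those called, made up to 4 by the smallest p, the 4 highest and 4 lowest by TPM, the Mrps18 paralogs and the 3 whose name and place differ; from each partner list, up to 4 called genes are named. Members named for an overlap with another gene were chosen after values were seen. Protein sequences were not used here.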

Additional observations from a re-analysis of the deposited data

How the results depend on the processing

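No gene named as called or for its small p turned its direction under any alternative run. Medians moved with the scaling, and that of Mrpl genes in ConvD against GF+SCFA changed sign with limma. In ConvD against GF, the median log2 fold change was 0.08 for Mrpl and 0.09 for Mrps genes with upper-quartile factors, 0.10 and 0.11 with library totals, and 0.09 and 0.09 on log2(TPM + 1) with limma; the log2 ratio of summed levels was 0.07 and 0.08, 0.09 and 0.10, and 0.09 and 0.08. In ConvD against GF+SCFA, the medians were -0.03 and -0.06 with upper-quartile factors, -0.01 and -0.05 with library totals, and 0.01 and -0.03 with limma; the ratios of sums were -0.02 and -0.07, -0.01 and -0.05, and 0 and -0.05. All-gene medians shifted by up to 0.08 with them. In ConvD against GF, 0 Mrpl genes were called with no filter, with DESeq2, with 6 samples and with the replicate block, and 1 Mrps gene with upper-quartile factors. In ConvD against GF+SCFA, 1 Mrpl gene was called with upper-quartile factors, library totals or limma, and Mrps calls were 1, 0 and 0 there and 2 with DESeq2 or 6 samples. In GF+SCFA against GF, DESeq2 called 1 Mrps gene. With 1 library left out, Mrpl calls ran from 0 to 1 and Mrps calls stayed at 0 in ConvD against GF, both ran from 0 to 4 in ConvD against GF+SCFA, and were 0 and 0 to 1 in GF+SCFA against GF. In those fits the Mrpl and Mrps medians ran from 0.01 to 0.06 and 0.01 to 0.04 in ConvD against GF, from -0.10 to -0.05 and -0.14 to -0.10 in ConvD against GF+SCFA, and from 0.07 to 0.12 and 0.13 to 0.16 in GF+SCFA against GF. Ratios of sums ran from -0.01 to 0.03 and 0.01 to 0.03, from -0.10 to -0.06 and -0.14 to -0.11, and from 0.07 to 0.11 and 0.13 to 0.16 in these 3 comparisons. Log2 CPM minus the group mean correlated at -0.07 to 0.14 between same-numbered libraries of different groups and at -0.13 to 0.11 between different-numbered ones. Between GF and GF+SCFA livers the same-numbered values were 0.09, 0.08 and 0.14, all above the different-numbered ones, at -0.10 to 0.02. The labels state no pairing, and the main fit took none. Among members, the replicate block took away the calls of Mrpl22 (adjusted p = 0.0596) and Mrps27 (0.0546). It gave 1514 calls over all genes in ConvD against GF, beside 1544 without it, and 5 in GF+SCFA against GF, as without it. The causes were not tested. With 3 livers a group the median SE of a member's log2 fold change was 0.09, which limits what can be told apart.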
